A study of Oryza sativa Indica Group with 24 samples.

Results

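Among 7296 complementary DNA clones spotted on an array, 100 are described here. They stood above well-watered plants on day 59 after germination, in leaves of field-grown rice held under drought. The brightest and the dimmer clones were left out, so the 100 are not simply the highest of all clones that day. They were chosen from the log2 ratio of stress over control on 21 arrays, centred on each array's median clone spot and averaged over the duplicate spots of a clone (the median-centred ratio). Clones ranked 151 to 3648 by brightness, counted from the brightest, were kept, 3498 in all. Of these, a clone was a candidate if its largest absolute mean ratio over the 3 stress levels, among days 45, 52, 55, 59, 63, 67 and 71, fell on day 59 and its ratio that day was above 0 at every level. This left 227 candidates, and the 100 whose lowest ratio over the levels on day 59 was highest were taken. Their brightness ranks ran from 158 to 3334 with a median of 953, so that most lay in the brighter part of the range kept, and the 3498 clones they are compared with were dimmer on the whole. The ratios and channel levels of days 45 to 71 are therefore described without a test. Day 75 had no part in the choice and was tested. Differences between stress levels on days other than 59 were tested too: they come largely from the same arrays, of which the choice used the mean over the levels and the brightness.

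The plants were Oryza sativa of the Indica Group, cultivar Nagina 22 (N22), grown in field plots under a rain-out shelter. Control plots were kept at 100% of field capacity, a measure of how much water the soil retains, and stressed plots at 60% (mild), 40% (moderate) or 15% (severe). Each array carried control RNA in the Alexa 488 channel and RNA from stressed plants of equal age in the Alexa 594 channel, in the same dye orientation throughout, with 1 array for each level on each day. Days 45, 52, 55, 59, 63, 67, 71 and 75 came after 7, 14, 17, 21, 25, 29, 33 and 37 days of stress. The labels call days 45 and 52 vegetative, day 55 pre-anthesis and days 63 to 75 post-anthesis and seed setting, and give no stage for day 59; titles of the scanned images in the file headers place day 59 before bloom. The severe array of day 75 was read only from the authors' value table, which leaves 23 arrays with intensities. Arrays of a level carry 1 plot code, a sample pooled several leaves of a plot, and no array was repeated. Spot SDs thus measure the spread between duplicate spots. SEs and p-values measure that between arrays of different levels or days, after duplicate spots were averaged. None of them measures the spread between plots.

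Drought in rice leaves is known to act largely through the hormone abscisic acid, which closes stomata and switches on genes for protective proteins such as dehydrins, for compatible solutes and for the removal of reactive oxygen. The weeks around flowering are the stage at which rice yield is most sensitive to lack of water. A clone on such an array reports the transcript it was copied from, and near-identical transcripts of a gene family can bind the same spot. The files used here do not pair clone names with genes: none of the 7296 names was among the names of 39387 reference rice genes. The clones are therefore given by their printed names, without roles or sequences, and the labelled tissue could not be checked against leaf or panicle markers; the arrays are labelled as leaves, while the extraction protocol also names panicles.

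Many clones on these arrays were dim: 2758 of all 7296, and 93 of the 100, exceeded the empty spots (their 95th percentile on that array) in 1 or both channels on no less than a share of 0.5 of the arrays. On day 59 the control channel of 22, 75 and 48 of the 100 clones exceeded them under mild, moderate and severe stress, and the stress channel of 95, 100 and 93 did. Of all clones 7.3%, 34.9% and 14.1% exceeded them in the control channel there, so a control level below the array's median did not. The numerator of the ratio was thus measured above the empty spots for nearly all of these clones, while the denominator often was not, so that many of their ratios have a control level close to that of an empty spot. No spot of these clones was at the scanner maximum on day 59, and 1 of 600 was marked to be ignored. Duplicate spots of these clones on day 59 differed little. In log2 units the SD of a single spot was 0.097 on the mild, 0.118 on the moderate and 0.108 on the severe array. Both spots of all 100 clones were above 0 on the 3 arrays. The choice of clones with ratios of 0.749 or more, with gaps of this size, fixed that outcome. The largest gaps between duplicates on 1 array were 0.73 in NL19_A07, 0.63 in NL_9_68 and 0.62 in NL19_B05.

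On day 59 the median-centred log2 ratio of the 100 clones had a median of 1.96 under mild stress, with a range from 0.86 to 3.86. Under moderate stress the median was 1.51 and the range 0.78 to 3.96, and under severe stress 1.17 and 0.75 to 3.36. The 3498 clones of the same brightness range had medians of 0.23, 0.06 and -0.06 on those arrays. As a fold of the mean over levels, the 100 clones ran from 1.84 to 13.25 with a median of 3.06; where the control channel did not exceed the empty spots, such a fold has no measured denominator and its size is uncertain. Ratios of 2-fold or more were held by 92 of them on the mild, 86 on the moderate and 66 on the severe array, where 12.1%, 13.2% and 8.85% of all clones held one. At all 3 levels 59 of them held one, against 3.47% of all clones (253) and 4.55% of those of the brightness range (159). Some clones outside the group thus stood as high that day. All 100 were above 0 on each array, against 49.7%, 49.6% and 49.5% of all clones, and 24.6% of all clones were above 0 on the 3 arrays together; the choice of the clones fixes these differences. The last clones inside the limit of 100 had lowest-level ratios of 0.751 (NL15_A09), 0.749 (NL19_A08) and 0.749 (NL18_D09), and the first outside had 0.748 (NL26_D10), 0.731 (NL10_B09) and 0.723 (NL49_G01), so that no gap in the values separates the group from the clones that follow it.

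**Figure D1:**
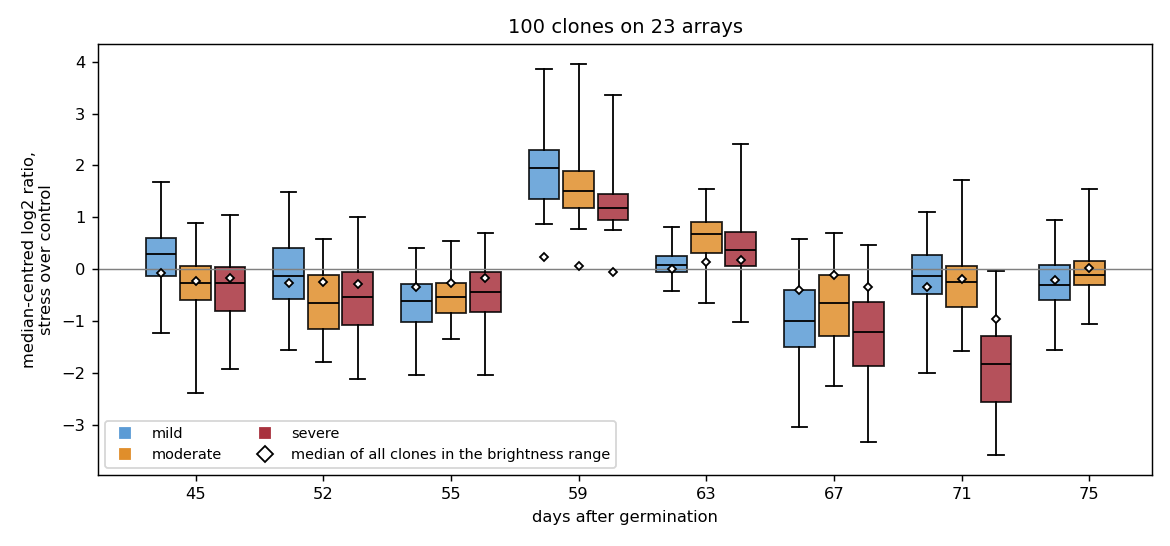
Median-centred log2 ratio of stress over control (vertical axis) of the 100 clones on each of 23 arrays, by days after germination and stress level. Boxes span the quartiles with the median as a line, whiskers reach the lowest and highest clone, and diamonds mark the median of 3498 clones of the same brightness range. The boxes of day 59 lie above 0 by the choice of the clones; on the severe array of day 71 all 100 clones lie below 0.

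NL12_H05 led the group. Its ratio on day 59 was 3.86, 3.96 and 3.36 in the order mild, moderate, severe, a 13.25-fold mean excess over control. The control level under mild stress was 0.86, below the group's upper quartile of 1.68. On that array 22 of the 100 control levels exceeded the empty spots. The mild ratio thus has no measured denominator, and the size of the mean fold is uncertain. Outside day 59 the highest ratio of NL12_H05 was 1.46, under mild stress on day 52, and on day 67 it was -1.62, -2.25 and -3.34. The clone with the largest excess on day 59 thus stood below control at every level on day 67. After loess its ratio under mild stress was 2.95 on day 52 and 2.79 on day 59, so that on this scale day 59 was not its highest day at the mild level.

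The next clones showed the same peak. NL_9_68 had 3.00, 2.53 and 2.75 on day 59 in the same order of levels, and NL45_E10 had 3.39, 2.39 and 2.34. NL24_E12 had 2.70, 3.18 and 2.20. All 3 were below 0 at every level on day 67, where NL_9_68 reached -3.04, NL45_E10 -2.59 and NL24_E12 -2.42 under mild stress. In NL_17_67 the order of the levels was turned, at 2.18, 2.65 and 2.99, and NL53_H08 had 2.82, 2.95 and 2.16. NL53_H08 was below -1.5 on every array of days 67 and 71, which none of the other 5 was. On day 59 the control channel of NL_9_68 was below the array's median clone spot at every level (-0.40, -0.11 and -0.69). That of NL24_E12 was under mild and moderate, of NL_17_67 under moderate and severe and of NL53_H08 under moderate stress. Ratios on those arrays have no measured denominator, and their size is uncertain. A control level above the array's median was no sign of a measured denominator. Under mild stress the control channel of 22 of the 100 clones exceeded the empty spots, and the group's upper quartile was 1.68. NL45_E10 (0.035), NL_17_67 (0.47) and NL53_H08 (0.53) lay below it. Under severe stress 48 exceeded them, and NL45_E10 (0.93), NL24_E12 (0.78) and NL53_H08 (0.705) lay below the group's median of 1.31. These ratios have no measured denominator either.

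The other 6 of the 12 highest clones were more moderate. NL_6_77 was nearly the same at all levels, at 1.96 on each array of day 59. NL6_F03 had 2.49, 1.94 and 1.90, and it is the brightest of the 12, with a brightness rank of 161. NL9_F09 had 1.86, 2.75 and 1.99, with a control channel below the array's median clone spot at every level (-0.60, -0.89 and -1.39). NL9_F09 was above 0 on 13 of the 18 arrays outside day 59 that entered the choice, the highest count in the group, where the median was 5. NL19_B07 had 2.08, 2.37 and 1.85, NL9_H01 had 2.26, 2.11 and 1.77, and NL10_E10 had 3.54, 2.76 and 1.75. The control channel was also below that median in NL10_E10 under mild and moderate, NL_6_77 under severe and NL19_B07 under moderate stress. Ratios of NL9_F09 and of these clones on those arrays have no measured denominator, and their size is uncertain. The same holds for control levels that were too low to exceed the empty spots though above that median. These were NL_6_77 (0.325), NL19_B07 (0.67) and NL9_H01 (1.32) under mild stress and NL_6_77 (0.038) under moderate stress. Under severe stress they were NL19_B07 (0.48) and NL10_E10 (0.51). Of the 12, 11 were below 0 at all 3 levels on day 67, with NL9_F09 as the exception, and all 12 were below 0 on the severe array of day 71.

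**Figure D2:**
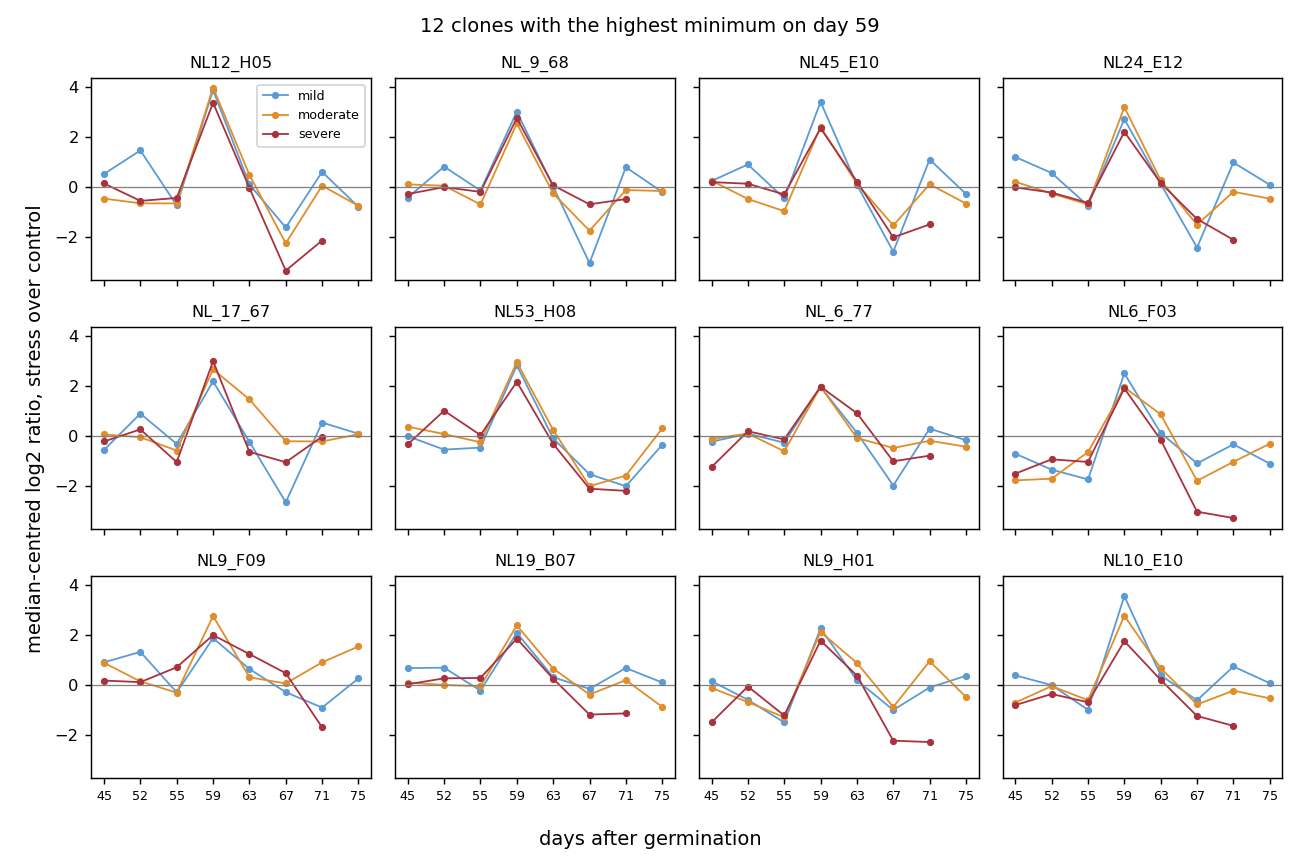
Median-centred log2 ratio of stress over control (vertical axis) against days after germination for the 12 clones with the highest lowest-level ratio on day 59; each point is 1 array and lines join the arrays of a stress level. The 36 ratios of day 59 lie between 1.75 and 3.96, and 11 of the 12 clones are below 0 at all levels on day 67.

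The ratio on day 59 was highest at the mildest stress in most of the clones. Mild exceeded moderate stress in 77 of 100 clones, mild exceeded severe in 92, and moderate exceeded severe in 77. The median difference between mild and severe stress was 0.60, which is several times the spot SD, but there is 1 array for each level and the clones of the brightness range differed in the same direction, with a median severe-minus-mild difference of -0.32 and 77.6% of them below 0. The range over the levels was largest in NL42_E08 (2.74, 1.58 and 0.89 under mild, moderate and severe stress), NL10_E10 and NL47_C02 (2.78, 1.82 and 0.99). It was smallest in NL_6_77, NL7_B09 (0.91, 0.92 and 0.93) and NL26_F12 (1.76, 1.71 and 1.77). The order of the levels depended on the scaling: after loess normalization mild exceeded moderate in 68, mild exceeded severe in 65 and moderate exceeded severe in 49 clones.

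Scaling also set the size of the excess. Loess normalization removes the trend of the ratio with brightness on each array, and after it the medians on day 59 were 1.15, 0.87 and 0.89 under mild, moderate and severe stress. With 1 curve for each print block (the spots printed by 1 pin) they were 1.05, 0.59 and 0.65. On the loess scale 99 clones were above 0 on each of the mild, moderate and severe arrays, against 48.4%, 47.3% and 47.2% of all clones. Ratios of 2-fold or more were held by 59, 39 and 45 of the clones on these arrays, against 7.03%, 3.78% and 1.89% of all clones. At all 3 levels, 97 clones were above 0 with 1 loess curve (22.9% of all clones) and 96 with print-block curves, and 30 (0.617% of all clones) and 25 were at 2-fold or more. NL12_H05 still had 2.79, 2.87 and 2.57 with 1 loess curve, and NL_9_68 had 3.01, 2.38 and 3.09. NL6_F03, the brightest of the 12, had 0.96, 0.42 and 0.82, and NL9_F09 had 2.23, 2.94 and 2.52. The median of the group was thus above 0 on day 59 under these scalings, at a lower level than with median centring. These values come from the arrays used for the choice, so the differences from all clones are not independent of it.

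**Figure D3:**
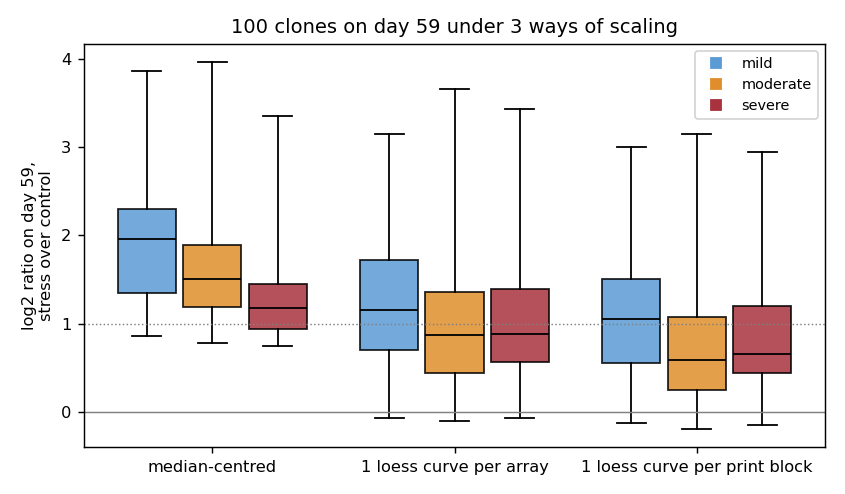
Log2 ratio of stress over control on day 59 (vertical axis) of the 100 clones by stress level, under median centring, 1 loess curve per array and 1 loess curve per print block. Boxes span the quartiles, whiskers reach the extremes and the dotted line marks 2-fold; the mild median goes from 1.96 to 1.15 and 1.05.

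The median over the 100 clones of the mean over levels was -0.10, -0.43 and -0.54 on days 45, 52 and 55. It stood at 1.61 on day 59 and 0.38 on day 63, and at -1.04 and -0.70 on days 67 and 71. Day 63 was the second highest day in 85 clones and 90 were above 0 there in the mean. Ratios were below 0 at all 3 levels on day 55 in 75 clones (27.5% of all clones) and on day 67 in 76 (26.4% of all clones). On day 63, 55 clones were above 0 at all levels, against 20.0% of all clones, and on day 71, 50 were below 0 at all levels, against 30.9%. Of the clones of the brightness range 49.0%, 44.7% and 53.9% were below 0 at all levels on days 55, 67 and 71. On day 63, 31.5% of them were above 0. The group thus did not stand out from them on day 71. After loess 57 clones were below 0 at all levels on day 55 (26.8% of all clones), 52 above 0 on day 63 (20.8%), 59 below 0 on day 67 (21.0%) and 23 below 0 on day 71 (29.4%). Day 71 did not stand out on that scale either. For the brightness range these shares were 41.2%, 32.1%, 28.9% and 33.6%.

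That time course was shared with other clones that were above control on day 59. Among the 1280 clones of the same brightness range that were above 0 at all levels on day 59, 76.3% were below 0 at all levels on day 55, 57.0% were above 0 on day 63, 64.6% were below 0 on day 67 and 69.5% were below 0 on day 71. The 100 clones had 75, 55, 76 and 50 in the same order: close to these shares on days 55 and 63, above on day 67 and below on day 71. On the loess scale the share below 0 on day 67 was 59.8% of the members and 37.2% of the clones of the brightness range that were above 0 on day 59; on day 71 it was 23.7% and 45.4%. Across the 100 clones, the mean over levels on day 59 and that on day 67 had a Pearson correlation of -0.63 (-0.43 after loess); the other days had correlations with day 59 from -0.21 to 0.05 without loess. The clones share arrays and were selected on these values, so the correlations only describe the group.

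The lowest day differed between clones. It was day 67 in 56, day 71 in 22, day 55 in 17 and day 52 in 5 clones. The 56 clones lowest on day 67 had the highest median on day 59, at 1.70, and a median of -1.41 on day 67. In NL_8_6, NL45_H11 and NL50_D08 the deficit was about as large as the excess: their means over levels were 1.64, 1.66 and 1.55 on day 59 and -1.63, -1.64 and -1.53 on day 67. At the other end, NL35_C05 had 0.95 on day 59 and 0.85 on day 63, NL7_B09 had 0.92 and 0.75, and NL35_B04 had 1.13 and 0.91. These 3 had nearly the same excess on both days.

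With median centring, the severe array of day 71 had the lowest median of the group; after loess the moderate array of day 67 did, at -0.63. All 100 clones were below 0 on the severe array of day 71 with median centring, against 49.7% of all clones. Their median was -1.84, and 83 were 2-fold or more below control, against 26.4% of all clones. The 3498 clones of the brightness range also lay low there, with a median of -0.96 and 81.6% below 0. Under mild and moderate stress on day 71 the medians of the 100 clones were -0.14 and -0.24. After loess the severe median on day 71 was -0.58, with 77 clones below 0 and 34 at 2-fold or more below, against 48.6% and 19.5% of all clones. The part of brightness in the group's value on this array was not tested beyond these scalings.

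The channels were read separately to see which side of the ratio stood apart, as log2 intensity minus the array's median clone spot in that channel. The stress channel of the 100 clones had medians of 2.91, 2.75 and 2.84 on day 59 under mild, moderate and severe stress, and no other array of days 45 to 71 had a median above 2.19. In the control channel the medians on day 59 were 0.97, 1.00 and 1.31, within the range of the earlier days. In bulk tissue a change in the share of a cell type and a change in RNA per cell cannot be told apart.

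Set against its mean over the other days, the stress channel on day 59 was higher by a median of 1.82 and the control channel differed by a median of -0.46. The stress channel moved more than the control channel in 87 clones, and in 84 the stress channel was higher and the control channel lower. For 57 clones the stress channel was higher on day 59 than on every other day at every level; the control channel was lowest at every level in 2. With the channels quantile normalized, the stress channel kept a median of 0.97 and the control channel turned to 0.018, so that the lower control level does not hold under that scaling. Clones of the same brightness range had medians of 0.19 in the stress and -0.29 in the control channel.

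NL32_E06, NL12_H05 and NL24_F06 had the largest excess in the stress channel. In NL32_E06 it was 4.79, 4.14 and 4.80 on day 59 under mild, moderate and severe stress and at most 2.85 on any other array, and the control channel on day 59 was 2.34, 2.22 and 3.15. In NL12_H05 the stress channel was 4.87, 5.14 and 5.32 on day 59, and on day 67 the control channel reached 4.42, 2.95 and 4.74 while the stress channel was 2.89, 0.80 and 1.45. NL12_H05 thus had its highest stress-channel levels on day 59 and its highest control-channel levels on day 67, when its stress channel was within the range of its other days under mild and severe stress and at its lowest under moderate stress.

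The control channel of the whole group was also high late. Its medians were 2.13, 2.03 and 2.17 on day 67 and 1.85, 1.93 and 3.00 on day 71 in the order of the levels, and the medians of days 45 to 63 reached 1.73 at most. The clones of the brightness range had control medians from 0.73 to 0.79 on day 67 and from 1.22 to 1.47 on day 71. Some clones differed mainly in the control channel on day 59, where their control levels were low. NL_19_17 and NL6_D03 were below the array's median clone spot at every level, and NL26_H01 was under severe stress. These control levels did not exceed the empty spots, so the size of the differences is uncertain. In the stress channel NL_19_17 was below the median too under mild (-0.31) and severe stress (-0.12). In NL_19_17, day 59 minus the other days, averaged over levels, was -1.67 in the control and -0.10 in the stress channel; in NL6_D03 the values were -1.56 and 0.51, and in NL26_H01 -1.32 and 0.30. The scanner files of days 45, 52 and 55 were quantified in 1 session and those of days 59 to 71 in another. Against days 63, 67 and 71 alone, the medians were 1.46 in the stress channel and -0.69 in the control channel, values that the choice of the clones also used; the part of the session was not tested.

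**Figure D4:**
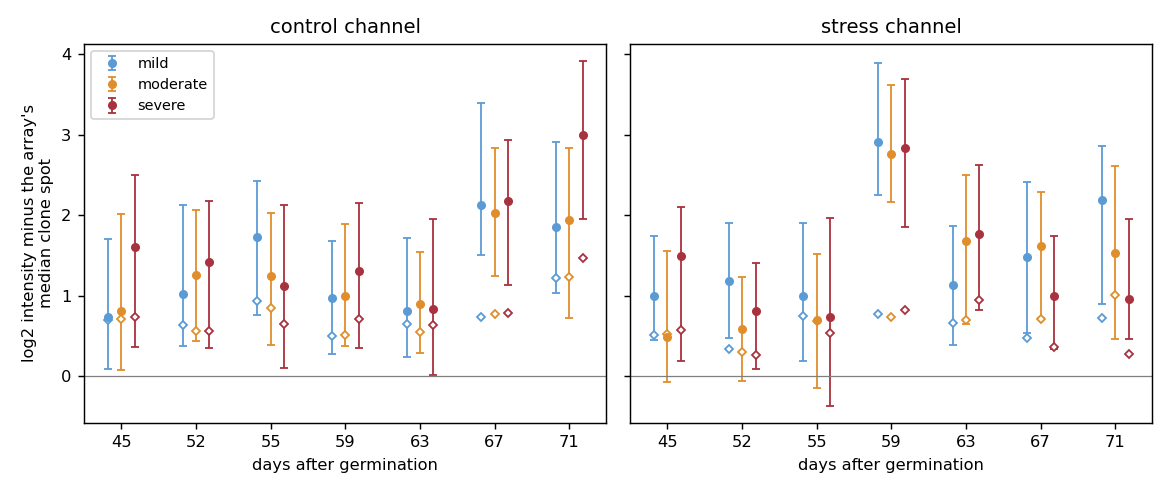
Log2 intensity minus the array's median clone spot (vertical axis) in the control and the stress channel by days after germination; filled points are medians of the 100 clones with bars from the lower to the upper quartile, and open diamonds are medians of 3498 clones of the same brightness range. The stress channel of day 59 has medians of 2.91, 2.75 and 2.84, and the control channel is high on days 67 and 71.

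The clones also shared features that the choice did not use directly. By the prefix of their printed names, 87 belong to the NL set, 12 to the NL_ set and 1 to the MK set, where the clones of the brightness range are divided as 67.2%, 25.6% and 7.23%. They come from 43 of the 76 plate names, with at most 8 from 1 plate (NL9). On the slide, 34 lie in print rows 1 and 2, which hold 18.1% of the clones of the brightness range, and 40 lie in print column 2, which holds 20.4%. They fill 35 of the 48 print blocks, with at most 9 in 1 block.

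Location on the slide moved with the ratio on day 59. Clones of the brightness range in print column 2 had medians of 0.58, 0.41 and 0.37 under mild, moderate and severe stress, against 0.12, -0.01 and -0.16 in the other columns. Those in print rows 1 and 2 had medians of 0.35, 0.49 and -0.02, against 0.17, -0.01 and -0.08 in the other rows. The 66 members outside print rows 1 and 2 had median-centred medians of 2.06, 1.48 and 1.18, and the 60 outside print column 2 had 2.16, 1.64 and 1.13. The 34 members in print rows 1 and 2 had 1.78, 1.73 and 1.17, and the 40 in print column 2 had 1.77, 1.30 and 1.19. Every member was chosen for a ratio above 0 on these arrays, and the part of slide location in the ratios was not tested.

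Day 75 was the later time point that had no part in the choice. On the loess scale the 100 clones had a median of -0.15 on the mild array, with 46 above 0, and of -0.21 on the moderate array, with 24 above 0. Their mean over both arrays had a median of -0.22 and ranged from -1.17 to 0.99; 71 were below 0. The clones of the brightness range had a median of -0.12 with 63.3% below 0, and all clones had 0.007. On day 75 the ratios of the group thus lay on both sides of 0, more of them below it.

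With limma over all 7296 clones and Benjamini-Hochberg adjustment, 5 of the 100 clones passed an adjusted p of 0.05 on day 75, where 3.77% of all clones did, a share near the background. Without adjustment 22 had a limma p under 0.05, of which 15 were lower than 0, where 14.1% and 8.46% of all clones did; of the clones of the brightness range 14.8% had such a p and a mean below 0, close to the share in the group. NL9_F09 had loess ratios of 0.36 and 1.61 under mild and moderate stress, a mean of 0.99 (SE 0.28, limma adjusted p 0.020), and NL19_A07 had 0.036 and 1.77, a mean of 0.90 (SE 0.28, limma adjusted p 0.044). In both, the ratio was higher on the moderate than on the mild array. MK_PG8_F04 had -0.79 and -1.55, a mean of -1.17 (SE 0.28, limma adjusted p 0.00263), NL50_D08 had -2.002 and -0.083 with a mean of -1.04 (SE 0.28, limma adjusted p 0.013), and NL51_C09 had -1.35 and -0.69 with a mean of -1.02 (SE 0.28, limma adjusted p 0.0138). NL6_D03, the third highest, had 0.37 and 1.20 and did not pass (limma adjusted p 0.101). None of the 5 passed with median centring, with print-block loess or among the clones above the empty spots alone, so that no clone of the group kept a call on day 75 under these alternatives. The 2 arrays are different stress levels and give 1 degree of freedom for each clone before the spread is shared. Sharing made the SE nearly the same in each clone (median 0.279 over all clones and over the 100). It thus does not measure how far the 2 arrays of a clone differed, which was far in NL50_D08 and NL19_A07.

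Differences between stress levels on the other days were tested with the day as a factor, over 20 arrays. None of the 7296 clones passed in severe minus mild, moderate minus mild or severe minus moderate stress by limma (0% called; smallest adjusted p among the 100 clones 0.879, 0.851 and 0.925). Without adjustment, 31, 12 and 4 of the 100 clones had a limma p under 0.05 in these contrasts, where 5.08%, 5.56% and 4.95% of all clones did. In severe minus mild stress 30 of the 31 were lower under severe stress, where 2.78% of all clones and 3.63% of those of the brightness range were. All 12 in moderate minus mild and all 4 in severe minus moderate stress were lower at the stronger stress, where 0.987% and 4.40% of all clones were. Of the clones of the brightness range 1.09% and 6.69% were, so the 4 are near the background. With median centring these counts were 0 and 20 in place of 12 and 4, so that they depend on the scaling. The shares lower were then 0.11% and 7.4% of all clones and 0% and 12.1% of the brightness range. No clone of the group thus passed the adjusted threshold between levels.

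The median difference between severe and mild stress over the 100 clones was -0.37 (median SE of a clone 0.30), and 76 were below 0; the clones of the brightness range had 0.056 with 41.7% below 0. By day, the loess medians of severe minus mild stress were -0.76 and -1.14 on days 45 and 52, -0.018 and 0.26 on days 55 and 63, and -0.094 and -0.75 on days 67 and 71. Clones of the brightness range had -0.17 and 0.03 on days 45 and 52, 0.015 and 0.20 on days 55 and 63, and 0.26 and -0.029 on days 67 and 71. The difference was thus lowest on days 45, 52 and 71, below these clones. It was near theirs on days 55 and 63 and below theirs on day 67. Without day 71 the median over the clones was -0.24. NL12_H05 had a severe-minus-mild difference of -1.13 (SE 0.35, limma adjusted p 0.879). The median of moderate minus mild stress was -0.24 and became -0.010 with median centring, and -0.096 without day 52. That of severe minus moderate was -0.12, and it was -0.44 with median centring and turned to 0.041 without day 71.

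**Figure D5:**
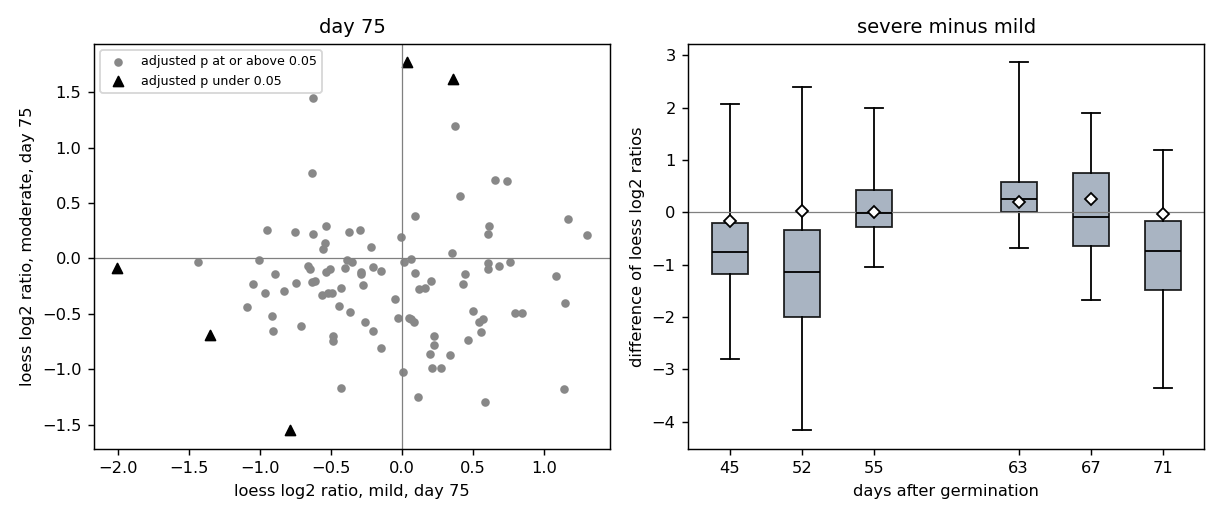
Day 75, which had no part in the choice of the 100 clones, and differences between stress levels on arrays that the choice used, on the loess scale. Left, log2 ratio on day 75 under mild (horizontal axis) and moderate stress (vertical axis), with triangles for the 5 clones with an adjusted p under 0.05; right, severe minus mild log2 ratio by days after germination, as boxes with quartiles and whiskers to the extremes, with diamonds for the median of the clones of the brightness range. Ratios of day 75 lie on both sides of 0, and the differences lie lowest on days 45, 52 and 71.

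The authors' deposited value table holds log2 values that average to 0 over the 8 days of a level for each spot, so that it gives differences between days and no level against control; its earlier normalization was not stated in the labels or headers read. Of the 100 clones, 99 could be matched to the authors' deposited table, and there their medians on day 59 were 1.87, 1.46 and 1.45 under mild, moderate and severe stress. Day 59 was the highest of the 8 days in 87, 85 and 81 of them in the authors' deposited table, compared with 1625, 1252 and 681 of the 6480 matched clones. These values come from the same arrays and are not independent of the choice.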

How the data were processed

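Two-colour spotted arrays of rice leaves were read from the deposited scanner files, which give linear intensities of each spot per the file headers (QuantArray); 2 short tables of day 75 hold the same intensity columns, and the stress-channel columns recorded under another unit name are deposited intensities too. The authors' value table holds log2 values centred per spot within a level; their earlier steps were not stated in the labels or headers read. Each array has 15552 spots, with 7296 clones in duplicate and 816 empty spots. Intensities on the mild array of day 45 go up to 5242800, or 80 times the maximum of 65535 elsewhere; it was used as deposited, and the choice of clones was repeated without it. Day 75 files were joined by clone name (mild) or spot position (moderate), and the value table by spot position.

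The median-centred ratio used no background correction. The loess ratio used normexp (offset 50) and 1 curve per array (span 0.3, 4 iterations) and was the scale of the tests. Tests used limma 3.58.1 in R 4.3.3 (lmFit, eBayes, Benjamini-Hochberg over all clones, threshold 0.05) and were tested on simulated data. Other columns of per-sample values in tables of the whole series numbered 0. The number of arrays limits the precision. The members, lists and tests were chosen with earlier results of these data known. Named clones followed a fixed rule: the 12 highest, 3 on each side of the limit, extremes of range, day 75, channels, other days and duplicate gaps, and any clone called. Gene and marker lists could not be used without gene names.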

Additional observations from a re-analysis of the deposited data

Results flagged for a closer look

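Within each stress level, 54 series of array values (group medians of the ratio and channels, counts above the empty spots and the 12 highest clones) were examined for an array far from the others, and 15 had one. Of these, all but the count above the empty spots are day 59 ratios, which the choice of the clones made high, so that their number cannot be read against the 5% of groups that chance gives. The mild median of the 100 clones on day 59, 1.96, was far above the other mild arrays. The same held on the mild array of day 59 for NL53_H08 (2.82), NL6_F03 (2.49), NL19_B07 (2.08) and NL10_E10 (3.54). On the moderate array of day 59 it held for NL12_H05 (3.96), NL_9_68 (2.53), NL45_E10 (2.39), NL24_E12 (3.18), NL_6_77 (1.96), NL19_B07 (2.37) and NL10_E10 (2.76), and on the severe array of day 59 for NL_9_68 (2.75) and NL_17_67 (2.99). A technical value also stood apart: on the moderate array of day 45 only 30 of the 100 clones were above the empty spots in the control channel.

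Days 59 and 67 opposed each other at every level in 76 of the 100 clones, which were above 0 on all 3 arrays of day 59 and below 0 on all 3 of day 67. Among clones above 0 at all levels on day 59, 64.6% of the brightness range and 55.2% of all clones were below 0 on day 67. After loess, 58 of the 100 clones did both. The difference was not tested, since both days were used to choose the clones.

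The severe array of day 75 has no intensities here and entered no test. In the authors' deposited value table its 99 matched clones had a median of 0.435 relative to their own mean over days, with 69 above 0, where all matched clones had a median of 0.135 and 55.3% above 0. The mild and moderate columns of day 75 in the authors' deposited table had medians of -0.37 and 0.045.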

How the results depend on the processing

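Against median centring, the day 59 medians under mild, moderate and severe stress became 1.15, 0.87 and 0.89 with normexp and 1 loess curve, 1.11, 0.89 and 0.89 with loess alone, and 1.05, 0.59 and 0.65 with print-block loess; with normexp and median centring the moderate and severe medians became 1.63 and 1.33. Clones at 2-fold or more at all levels numbered 30, 30 and 25 under the loess settings in that order, against 59. The same rule applied to those ratios chose 42, 48 and 44 of the 100 clones again; without the mild array of day 45 it chose 98 and without day 45 it chose 97. The stress-channel shift of 1.82 became 1.46 within the quantification session and 0.97 with quantile normalization, and the control-channel shift of -0.46 became -0.69 and, reversed, 0.018. The cause of these changes was not tested.

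On day 75 the clones called among the 100 went from 5 to 0 with median centring, to 0 with print-block loess and to 0 among clones above the empty spots; over all clones the calls went from 275 (56 higher, 219 lower) to 114 (2 higher, 112 lower), 2 and 62. In the 3 level contrasts no clone of the group was called under any alternative: with no replicate block (the day not fitted), with each day left out in turn (lowest 0, highest 0), with day 59 kept, with the mild array of day 45 divided by 80 or left out, with median centring, or among clones above the empty spots. The lowest ratio of each of the 12 highest clones on day 59 stayed above 0 under every setting, from 0.42 to 2.57 with 1 loess curve and from 0.24 to 2.43 with print-block loess.

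The control channel of 22, 75 and 48 of the 100 clones exceeded the empty spots on day 59 under mild, moderate and severe stress, which limits the ratios of the others, and 1 array for each level and day limits all values; duplicate spots share a slide and give spot error only. A dye bias common to all arrays cannot be told apart from the treatment.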
